A study of Mus musculus with 4 samples.

Results

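Grp94, MANF, CDNF, CRELD1, CRELD2, SDF2 and SDF2L1 are proteins of the secretory pathway, and their 7 mouse genes (Hsp90b1, Manf, Cdnf, Creld1, Creld2, Sdf2 and Sdf2l1) were read in mouse cerebellum with and without Derlin-2. They were chosen by name, as all array probes whose RefSeq accession belongs to 1 of them, out of 22911 named genes on the array. The 7 genes had 8 of the 56605 probes, Manf having 2, and all 8 were well above background on all 4 arrays. Total RNA came from the dissected cerebellum of C57BL/6 mice at postnatal day 28, raised free of specific pathogens, with 1 one-colour Agilent array per sample. The 2 control samples carried loxP-flanked Derl2 on both alleles (Derlin-2flox/flox). The 2 knockout (KO) samples were bred by crossing floxed mice to a line that expresses Cre recombinase under the nestin promoter. The nestin promoter is active in neural precursors, so microglia and blood vessels, which have another origin, may keep Derl2 in this model. The labels name no Cre for the controls. They do not say whether each sample was 1 animal, so the errors given here concern the spread between these samples. The SE of a single probe also draws on the spread of all probes. In RNA from whole tissue, fewer cells of a type and less RNA per cell cannot be told apart.

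Derlin-2 sits in the membrane of the endoplasmic reticulum (ER) and takes part in ER-associated degradation, the removal of misfolded proteins to the cytosol. When misfolded proteins collect in the ER, the unfolded protein response raises transcription of ER folding genes through the transcription factors ATF6 and XBP1, and through PERK and ATF4. Grp94 is the HSP90 chaperone of the ER lumen and folds integrins, Toll-like receptors and insulin-like growth factors. MANF is a small ER protein that binds the chaperone BiP and can be secreted as a neurotrophic factor. CRELD2 is an ER protein that is also secreted under stress, and SDF2L1 works with BiP and its co-chaperone ERdj3. These 4 are known as stress-induced genes. CDNF, CRELD1 and SDF2 are the paralogues of MANF, CRELD2 and SDF2L1 and are regarded as the more constitutive partners.

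Promoter sequences are shown first because ATF6 and XBP1 act at the ER stress element, which is CCAAT and CCACG with 9 free bases between them, and in which the CCAAT box binds the factor NF-Y. The 250 bases before the annotated start of each gene were taken from RefSeq on build GRCm38.p6, in which 6 of the 7 genes matched; Manf was not matched. Each is written 5′ to 3′ in the direction of the gene. Hsp90b1 lies at chr10:86705445-86705694 on the minus strand, Creld2 at chr15:88819396-88819645 on the plus strand, Sdf2l1 at chr16:17132384-17132633 on the minus strand and Creld1 at chr6:113483106-113483355 on the plus strand. Capitals mark whole ER stress elements, on either strand, in Hsp90b1 and Creld2, and the separate CCAAT (or ATTGG) and CCACG (or CGTGG) parts in Sdf2l1 and Creld1.
Hsp90b1: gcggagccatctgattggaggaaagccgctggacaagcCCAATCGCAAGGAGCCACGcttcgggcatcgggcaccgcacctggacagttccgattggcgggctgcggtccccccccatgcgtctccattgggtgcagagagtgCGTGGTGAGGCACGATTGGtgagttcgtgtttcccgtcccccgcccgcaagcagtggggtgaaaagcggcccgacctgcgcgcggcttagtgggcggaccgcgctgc
Creld2: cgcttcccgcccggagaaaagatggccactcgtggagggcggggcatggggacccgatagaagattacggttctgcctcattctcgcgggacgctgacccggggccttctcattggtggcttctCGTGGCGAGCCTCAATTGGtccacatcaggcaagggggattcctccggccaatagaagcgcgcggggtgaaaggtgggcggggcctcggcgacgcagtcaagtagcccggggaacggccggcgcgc
Sdf2l1: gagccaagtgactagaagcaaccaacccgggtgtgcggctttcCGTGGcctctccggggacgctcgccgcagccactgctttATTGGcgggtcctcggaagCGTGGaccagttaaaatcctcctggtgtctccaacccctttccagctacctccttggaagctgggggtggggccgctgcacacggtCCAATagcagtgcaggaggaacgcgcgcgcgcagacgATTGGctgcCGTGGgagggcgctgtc
Creld1: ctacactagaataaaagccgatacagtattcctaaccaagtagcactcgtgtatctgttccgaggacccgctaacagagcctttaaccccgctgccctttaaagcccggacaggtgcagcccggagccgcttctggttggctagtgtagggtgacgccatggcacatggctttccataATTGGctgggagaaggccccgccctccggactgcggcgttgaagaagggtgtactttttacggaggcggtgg

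Hsp90b1 held 2 whole elements, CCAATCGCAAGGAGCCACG which begins 212 bases before the start, and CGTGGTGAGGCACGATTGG, the element read on the other strand, with 88 bases between it and the start. Creld2 held 1, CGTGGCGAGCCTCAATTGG, also on the other strand, which begins 126 bases before the start. The element was found in 37 of the 32851 promoter windows of the same length in the table, or 0.113%. The windows of Sdf2l1, Creld1, Cdnf and Sdf2 held no whole element. Sdf2l1 held 3 CCAAT boxes and 3 CCACG parts that were not spaced as in the element. Creld1 held 1 CCAAT box and Cdnf held 3, with no CCACG part in either, and both windows of Sdf2 held neither. Each part alone is common: 33.8% of all windows held CCAAT and 28.3% held CCACG, on either strand and with overlaps between motifs counted. The second ER stress element, ATTGG and CCACG with any single base between them, was in 10 windows of the table and in none of the 6 genes. With 1 mismatch allowed in its 10 fixed bases, it matched 1.03% of all windows, among them Creld2 (ATTGGTCCACA) and Sdf2l1 (CGTGGACCAGT). With 1 mismatch, the first element matched 1.32% of windows, among them Creld1 (CATGGCTTTCCATAATTGG). These matches describe letters, not binding.

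**Figure D1:**
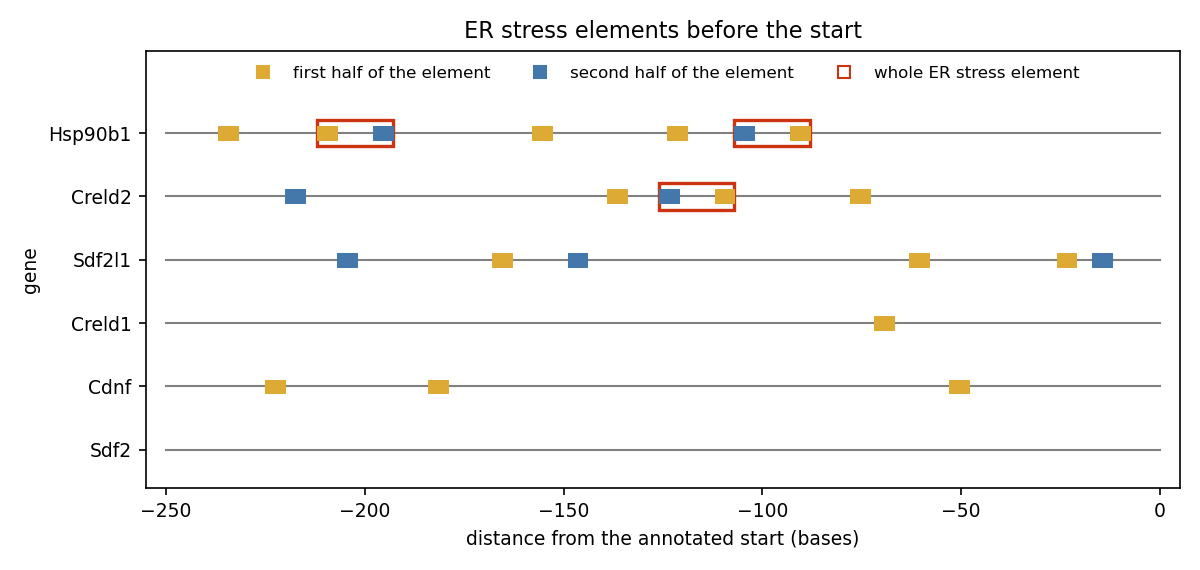
Positions of the ER stress element (red outline) and of its first (yellow) and second (blue) part on either strand in the 250 bases before the annotated start of 6 genes; the horizontal axis is the distance from the start in bases. Hsp90b1 has 2 whole elements and Creld2 has 1; the parts in Sdf2l1, Creld1 and Cdnf stand apart, and Sdf2 has neither.

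All values below are log2 processed signals minus the array's 75th percentile, so 0 is the level of a probe at that percentile, and they are compared only within a probe. Each array held 59305 non-control spots, of which 66.4% to 69.4% were well above background and 0 were saturated. Each member probe has 1 spot per array, and none of these spots was flagged as an outlier or lay on a patch of raised local background. All 4 arrays lay on 1 slide, controls and knockouts at separate positions, so position and group cannot be told apart. Derl2 itself had values of 2.13 and 2.20 in the controls and 0.81 and 0.70 in KO on its brighter probe, and so was lower by -1.41 (SE 0.11, limma adjusted p 0.273). On its dimmer probe it read 0.44 and 0.47 in the controls and -1.22 and -1.32 in KO, lower by -1.73 (SE 0.10, limma adjusted p 0.273). Cerebellar markers were present in all samples: 5 of granule cells summed to linear levels of 239.3 to 251.0 and 5 of Purkinje cells to 420.9 to 438.8. Among the latter, Car8 was uneven, with log2 signals of 3.99 and 3.13 in the controls, 1.02 in KO replicate 1 and 3.78 in KO replicate 2, while Pcp2 lay between 7.71 and 7.79. KO replicate 1 is also the array on which the stress-induced members were highest, and the part of Car8 in that was not tested. The array of control replicate 2 stood apart in choroid plexus markers: the summed linear level of 7 markers was 139.9 there and 7.44, 7.81 and 7.88 on the arrays of control replicate 1, KO replicate 1 and KO replicate 2. The sum of 4 red blood cell markers was also highest there, at 584.6, against 402.6, 413.0 and 395.6 on those arrays. The part of these markers in the results was not tested. No probe of the 37516 tested passed a limma adjusted p of 0.05 (0.0%), so the members are described by their values and by whether the KO arrays both lay above, or both below, the pair of control arrays. The smallest two-sided p of an exact permutation of 2 against 2 arrays is 0.333.

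In KO cerebellum the 4 stress-induced genes were higher than in control on every probe. The log2 differences were 1.03 for Sdf2l1, 0.82 and 0.76 for the 2 probes of Manf, 0.54 for Creld2 and 0.32 for Hsp90b1. The partners stayed closer to control, with differences of 0.17 for Creld1, -0.19 for Sdf2 and -0.27 for Cdnf. Both KO arrays lay above both control arrays for 6 of the 8 probes (75%), against 22.5% of all probes tested, and below them for the other 2, Cdnf and Sdf2 (25%), against 26.9% of all probes. An unadjusted limma p under 0.05 was reached by 3 of the 8 probes, all higher in KO (both of Manf, and Sdf2l1), against 8.84% of all probes in that direction and 5.2% in the other. The adjusted limma p of the 8 probes ran from 0.286 to 0.502, so none passed over all probes. When the arrays were scaled to spike-in probes, 32.7% of all probes had both KO arrays above both controls, and the counts were 6 of the 8 member probes above and 1 below, Sdf2 being the one that then overlapped.

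**Figure D2:**
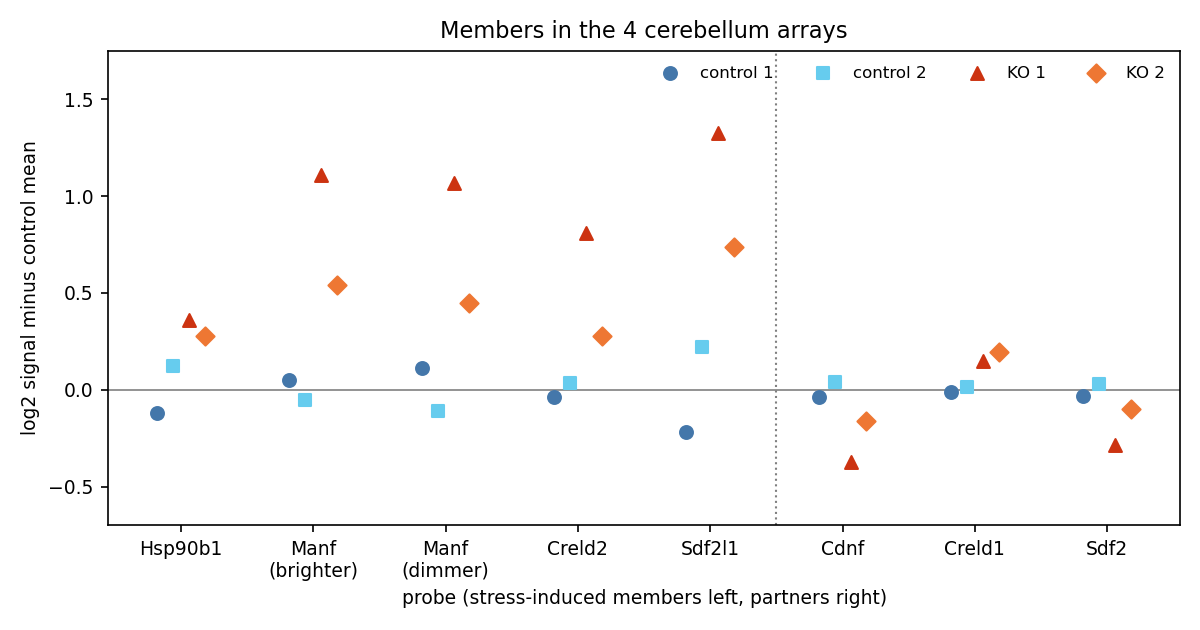
Log2 signal of each of the 8 probes minus the mean of its 2 control arrays (vertical axis), with 1 point per array; stress-induced genes stand left of the dotted line and partners right of it. KO 1 is the highest point for all 5 probes of the stress-induced genes and the lowest for Cdnf and Sdf2.

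Hsp90b1 encodes Grp94. Control arrays read 4.81 and 5.05 on the log2 scale, and KO arrays read 5.29 and 5.21. The lower KO value thus lay 0.16 above the higher control value, and the groups did not overlap. Control averaged 4.93 ± 0.17 (SD, n = 2) and KO averaged 5.25 ± 0.057 (SD, n = 2), which puts KO higher by 0.32 (SE 0.13; limma adjusted p 0.38), or 1.25-fold. The control arrays differed from each other by 0.24, so most of the spread lay within the controls, and the KO arrays differed by 0.08. Without control replicate 1 the difference was 0.20, and without control replicate 2, the array with choroid plexus signal, it was 0.44.

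Manf was measured by 2 probes. On the brighter, A_51_P418168, the log2 signal was 1.94 and 1.84 in the controls, and KO reached 3.0 and 2.43. The difference was 0.82 (SE 0.22; limma adjusted p 0.29), or 1.77-fold, between means of 1.89 ± 0.072 (SD, n = 2) and 2.71 ± 0.40 (SD, n = 2). Here the spread lay in the knockouts: KO replicate 1 was 1.11 above the control mean and KO replicate 2 was 0.54 above it. On the dimmer probe, A_66_P135155, the values were 1.49 and 1.27 in the controls and 2.45 and 1.83 in KO, a difference of 0.76 (SE 0.24; limma adjusted p 0.327). Both probes placed KO replicate 1 highest and KO replicate 2 next. The probes share the same RNA and are not replicates of the condition.

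Cdnf, the paralogue of Manf, was dim, with log2 signals of -3.84 and -3.77 in the controls and -4.18 and -3.97 in KO. It was lower on both KO arrays than on both controls, by -0.27 (SE 0.12; limma adjusted p 0.41; 95% interval -0.60 to 0.06). KO replicate 1, the array with the highest Manf, had the lowest Cdnf. Normexp background correction, which shrinks dim signals, left the Cdnf difference at -0.098.

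Creld2 had log2 signals of 3.28 and 3.35 in the controls and 4.13 and 3.59 in KO. The controls lay within 0.07 of each other, KO replicate 1 was 0.81 above their mean and KO replicate 2 was 0.28 above it. The difference was 0.54 (SE 0.21; limma adjusted p 0.36), or 1.46-fold, between means of 3.32 ± 0.052 (SD, n = 2) and 3.86 ± 0.38 (SD, n = 2). Creld1, the membrane-anchored paralogue, read 1.44 and 1.47 in control against 1.61 and 1.65 in KO. Its groups did not overlap either, and its difference was 0.17 (SE 0.098; limma adjusted p 0.485; 95% interval -0.09 to 0.44). Creld1 was the one gene of the 7 on which the KO arrays lay above the controls with KO replicate 2 the higher.

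Sdf2l1 differed most of the 7. On the log2 scale the controls read -0.62 and -0.18, and KO arrays read 0.93 and 0.34. The difference was 1.03 (SE 0.27; limma adjusted p 0.286), or 2.05-fold, between means of -0.40 ± 0.31 (SD, n = 2) and 0.63 ± 0.42 (SD, n = 2). It was the only member probe at least 2-fold apart with separate groups, which 0.608% of all probes were in that direction and 0.568% in the other. Those shares are 228 higher and 213 lower probes, a split that became 317 and 168 with spike-in scaling, 29 and 55 with normexp, 89 and 144 where all 4 arrays had to be well above background, and 228 and 132 without spots on raised background. The spread within each group was large: the controls differed by 0.44 and the knockouts by 0.59. Sdf2l1 was the higher on control replicate 2, and without that array its difference was 1.25. Sdf2, its partner, read 4.63 and 4.69 in control against 4.37 and 4.56 in KO, so it was lower by -0.19 (SE 0.12; limma adjusted p 0.502; 95% interval -0.51 to 0.12).

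**Figure D3:**
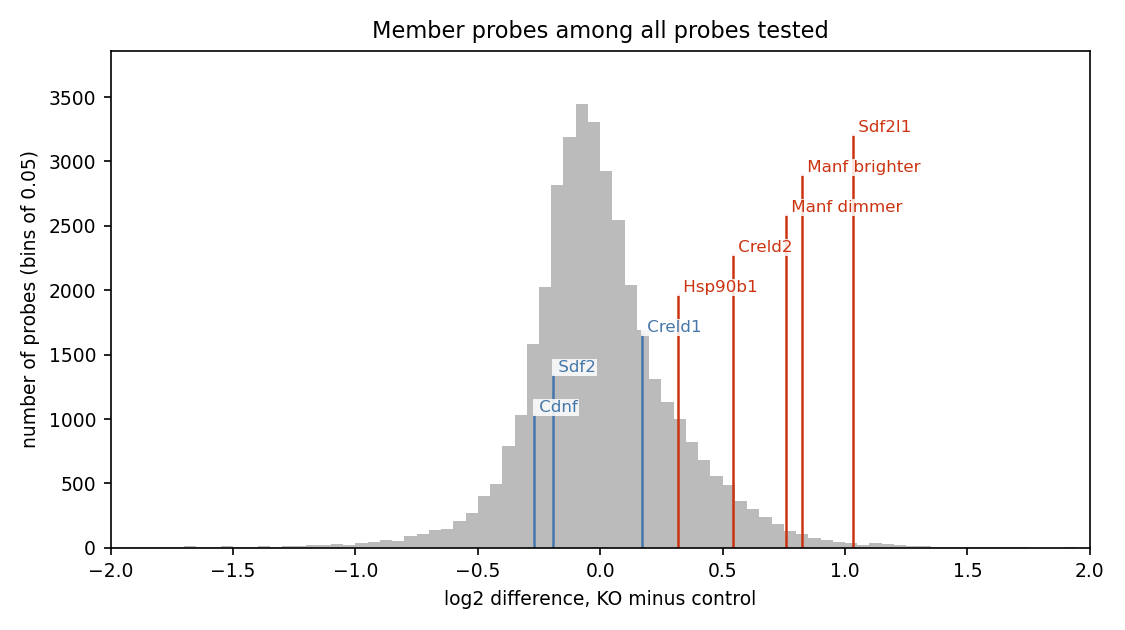
Histogram of the log2 difference, KO minus control, over the 37516 probes tested, in bins of 0.05 between -2 and 2 (84 probes lie outside), with vertical lines at the 5 probes of stress-induced genes (red) and the 3 of partners (blue); the heights of the lines carry no value. Sdf2l1 (1.03) and Manf (0.82 and 0.76) lie in the upper tail, while Creld1 (0.17), Sdf2 (-0.19) and Cdnf (-0.27) lie in the body of the distribution.

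The comparison of each stress-induced paralogue with its partner asked whether both genes of a pair differed by the same amount. It was made within each array, as the log2 difference between the 2 genes' brightest probes relative to its mean in the controls, so that any scaling of a whole array cancels. For Sdf2l1 against Sdf2 the control arrays lay 0.19 either side of their mean, KO replicate 1 lay 1.61 above it and KO replicate 2 lay 0.84 above it. The KO mean was thus 1.23 above control (SE 0.43), a 2.34-fold shift of Sdf2l1 relative to Sdf2. For Manf against Cdnf the controls lay 0.09 either side, and the KO arrays 1.48 and 0.70 above, a mean of 1.09 (SE 0.40). In both pairs every KO array lay outside the range of the controls by more than the distance between the controls.

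The same held for the CRELD pair, whose controls lay close together, but its shift in KO replicate 2 was small. For Creld2 against Creld1 the controls lay 0.02 either side of their mean, KO replicate 1 lay 0.66 above it, and KO replicate 2 only 0.09 above it. The mean shift was 0.37 (SE 0.29), and without KO replicate 1 it was 0.085, while without KO replicate 2 it was 0.66. Of the 3 pairs compared, each had a two-sided exact permutation p of 0.333 (0.333 after Benjamini-Hochberg adjustment over the 3), the smallest that 2 against 2 arrays allow. The shifts cannot be called at that size of study, and their order among the pairs was not tested.

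**Figure D4:**
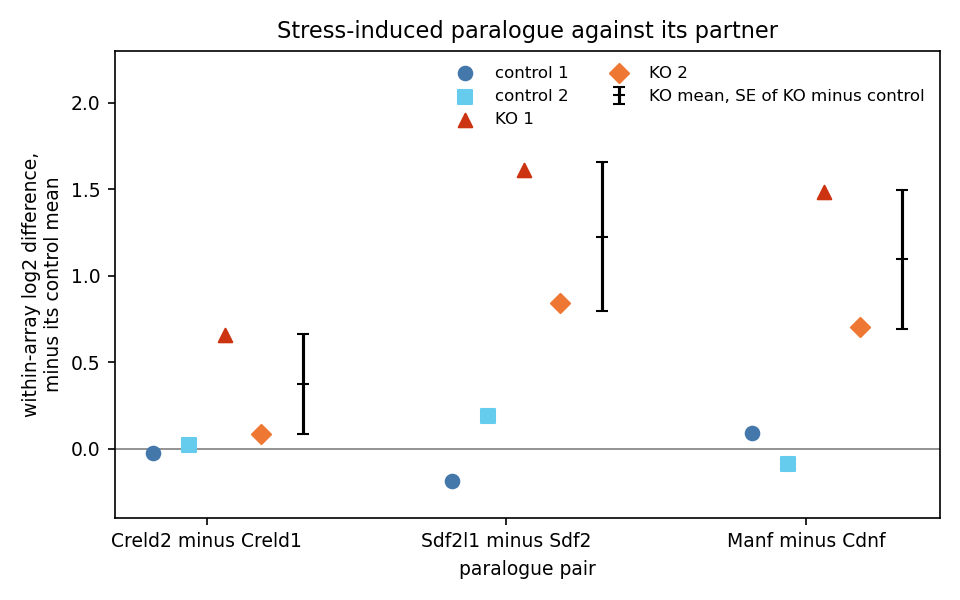
Within-array log2 difference between the brightest probes of each stress-induced gene and its partner, minus the control mean of that difference (vertical axis); coloured points are single arrays, and the black mark and bar are the KO mean with the SE of KO minus control. Both KO points lie above both control points in all 3 pairs, but KO 2 lies only 0.09 above the control mean for Creld2 minus Creld1.

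The 2 knockouts differed from each other. All 5 probes of the stress-induced genes were higher in KO replicate 1 than in KO replicate 2, by 0.08 for Hsp90b1 and by 0.53 to 0.62 for Creld2, Sdf2l1 and Manf. All 3 partner probes were lower in KO replicate 1, by -0.04 for Creld1, -0.19 for Sdf2 and -0.21 for Cdnf. Over all 16524 genes with a kept probe, 50.5% were higher in KO replicate 1. Derl2 was not the lower in that sample, at 0.81 against 0.70. The array of KO replicate 1 also had the lowest summed level of 6 oligodendrocyte markers (294.4, against 323.8 in KO replicate 2, and 352.8 and 334.9 in the controls). The same held for 6 microglia markers (13.0, against 15.0 in KO replicate 2, and 16.7 and 16.0 in the controls). In each of these lists 6 of 6 markers were lower in KO on average and 4 of 6 had both KO arrays below both controls. Of all genes, 36.1% were higher in KO on average and 32.1% had both KO arrays below both controls. The part of these markers in the results was not tested.

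Other genes of the same response were read from a list of 22 ER folding and quality control genes known as targets of ATF6 and XBP1, all of which had a kept probe. Of these, 18 were higher in KO on average, against 36.1% of all genes. Both KO arrays lay above both controls for 15, against 13.8% of all genes on 1 probe per gene (17 against 25.0% with spike-in scaling). None had both below, against 32.1% of all genes. The list's median difference was 0.28, where the median of all genes was -0.06. At an unadjusted limma p under 0.05, 5 were higher (3.16% of all genes) and 0 lower (5.65%), and 0 passed adjustment. Like the stress-induced members, 21 of the 22 were higher in KO replicate 1 than in KO replicate 2, and the list's median was 0.35 above the control mean in the first and 0.14 in the second, which are also its values without the other KO array.

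By smallest unadjusted p, the first gene of this list was Derl3, a paralogue of Derl2, with log2 signals of -2.09 and -1.60 in the controls and -0.23 and -0.49 in KO, a difference of 1.48 (SE 0.21). Xbp1, the transcription factor of the response, followed with 4.82 and 4.78 against 5.58 and 5.41, a difference of 0.70 (SE 0.11). Hspa5, which encodes BiP, the chaperone bound by MANF and SDF2L1, read 4.69 and 4.78 in control against 5.73 and 5.38 in KO, a difference of 0.82 (SE 0.16). Each of the 3 had a limma adjusted p of 0.273. For all 3 genes the gap between groups was wider than the distance between replicates. By size of difference the order was Derl3, Hspa5, Pdia6 (0.73) and Xbp1. Hsp90b1, with 0.32, lay close to the median of the list, and Sdf2l1 lay above every gene of it but Derl3.

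Of 8 genes of the PERK and ATF4 branch, all were higher in KO on average, against 36.1% of all genes. Both KO arrays lay above both controls for 5, against 13.8% of all genes (7 against 25.0% with spike-in scaling). The median was 0.43, and it was 0.24 without KO replicate 1 and 0.71 without KO replicate 2. At an unadjusted limma p under 0.05, 3 were higher, against 3.16% of all genes, and 0 lower, against 5.65%. These were Atf3, a transcription factor, with a difference of 1.07 (SE 0.28), Trib3, a pseudokinase, with 1.42 (SE 0.39), and Chac1, which breaks down glutathione, with 1.24 (SE 0.43). The controls lay far apart for the last 2, at -1.18 and -0.14 for Trib3 and at 0.58 and 1.80 for Chac1.

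The 3 HSP90 genes outside the ER were not higher in KO on average, and neither were 63.9% of all genes. Their median was -0.11, where that of all genes was -0.06, and it was -0.02 with spike-in scaling and -0.22 without KO replicate 1. Hsp90ab1, the constitutive cytosolic form, read 6.77 and 6.72 in control against 6.71 and 6.58 in KO, a difference of -0.10 (SE 0.11). Hsp90aa1, the inducible cytosolic form, differed by -0.11 (SE 0.12) with overlapping groups, and its difference was 0.0027 without KO replicate 2. Trap1, the mitochondrial form, was 1.52 and 1.39 against 1.18 and 1.15, a difference of -0.29 (SE 0.11; limma adjusted p 0.353). Both KO arrays lay below both controls for 2 of these 3, against 32.1% of all genes, and above for 0, against 13.8%. With 3 genes neither count is a result about this list. Of the family of 4, Hsp90b1 was the one whose KO arrays both lay above the controls.

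Among 10 genes for partners and retention receptors of these proteins, 0 had both KO arrays above both controls, against 13.8% of all genes. Both KO arrays lay below both controls for 4, and the list's median was -0.10. The count below was near the share of all genes, 32.1%. With 10 genes, 0 above was also near its share, so neither count is a result about this list. The KDEL receptors return ER proteins that escape to the Golgi. Kdelr1 read 0.10 and 0.16 in control against -0.16 and -0.10 in KO, a difference of -0.26 (SE 0.10). Cnpy4, of the canopy family that includes the Grp94 cofactor encoded by Cnpy3, differed by -0.33 (SE 0.10), and Pomt1, a protein O-mannosyltransferase, by -0.15 (SE 0.12). Cnpy3 itself differed by 0.036 (SE 0.11), with overlapping groups. At an unadjusted limma p under 0.05, 0 of the 10 were higher (3.16% of all genes) and 1, Cnpy4, was lower (5.65% of all genes).

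The 12 genes for client proteins of Grp94 had a median of -0.29, with 0 above and 3 below on both KO arrays. The share below was no higher than the 32.1% of all genes. With 12 genes, 0 above was near the 13.8% of all genes, so neither count is a result about the clients. At an unadjusted limma p under 0.05, 2 were lower, against 5.65% of all genes, and 0 higher, against 3.16%. Tlr7, an endosomal receptor of microglia and other immune cells, read -2.27 and -2.60 in control against -3.03 and -3.11 in KO, a difference of -0.64 (SE 0.15). Igf1, a growth factor, differed by -0.35 (SE 0.12), and Itgav, an integrin subunit, by -0.27 (SE 0.13). All 3 had separate groups. The microglia markers given above were lower in the same samples, and their part in this result was not tested.

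**Figure D5:**
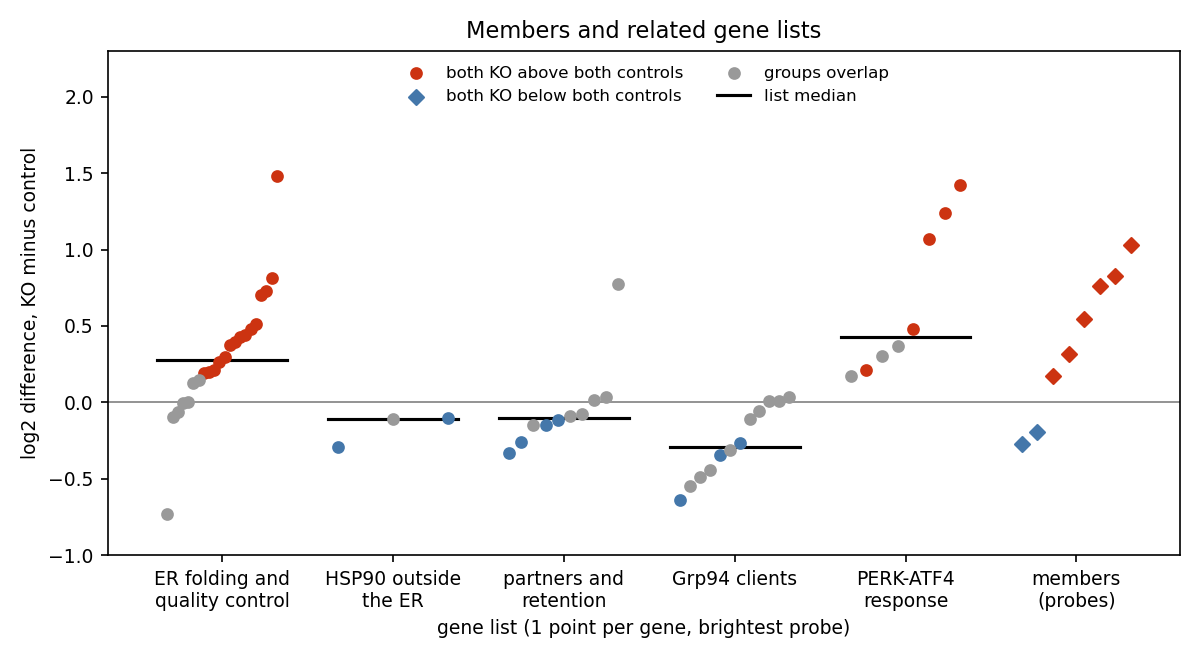
Log2 difference, KO minus control, of each gene in 5 lists (circles, brightest probe of each gene, sorted within a list) and of the 8 member probes (diamonds); colours show whether both KO arrays lay above (red) or below (blue) both controls or the groups overlapped (grey), and black lines are list medians. The medians are 0.28 for ER folding and quality control and 0.43 for the PERK and ATF4 branch, and lie between -0.29 and -0.10 for the other 3 lists.

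The genes whose pattern over the 4 arrays lay closest to that of the stress-induced members were found by the Euclidean distance between centred log2 profiles, among 16517 other genes. The reference was the mean profile of Hsp90b1, Manf, Creld2 and Sdf2l1, which read -0.42 and -0.26 in control against 0.56 and 0.12 in KO around its own mean. The nearest was Pdia5, a protein disulfide isomerase, at a distance of 0.046, with log2 signals of -3.02 and -2.90 in the controls and -2.02 and -2.51 in KO. It was followed by Pdia6, another disulfide isomerase, at 0.121, by Hspa5 at 0.156 and by Aldh18a1, an enzyme of proline synthesis, at 0.158. Creld2 itself lay at 0.163 and Hsp90b1 at 0.446. The genes named were picked as the nearest of 16517, so their lying closer than the members is no result about them. The probe of Chek1, a cell cycle kinase, also came among the nearest 5. It was not well above background on either control array and was kept through the KO arrays alone. Its fitted difference was 0.79, and 0.072 under normexp, so its place is not read. The distance is over 4 arrays only and carries no test.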

How the data were processed

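Cy3-labelled RNA (150 ng per sample) from 2 control and 2 KO samples was hybridised to 1 array each; groups and replicate numbers are those of the titles. The authors' scanner files hold the processed signal, an intensity on a linear scale. Per the file headers the scanner software was Feature Extraction 12.1.1.1, where the submitters' processing notes name version 10.7.1.1. The authors' intensity was background subtracted and detrended within the array, not normalized between arrays. The authors' deposited series table holds log2 values whose scaling and centring are not given in the sources used here; differences between its columns were used as an alternative only.

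Spots of a probe were averaged as log2 signal without control and outlier-flagged spots, then lowered by the 75th percentile of its array. Probes well above background on both arrays of a group were kept (37516 of 56605). Of 35886 probes with a RefSeq accession, 32994 (91.9%) were named, without versions, through a RefSeq gene table of GRCm38.p6. The contrast of KO with control was fitted in R 4.3.3 with limma 3.58.1 (lmFit, eBayes, no covariates) with Benjamini-Hochberg adjustment over all kept probes; the fit had 4.35 degrees of freedom. The fit was tested on simulated data. Where a gene had several probes, the brightest stood for it in lists and pairs.

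The members, lists and tests were chosen with earlier results of these data known. Named are all member probes, Derl2, the 3 HSP90 genes outside the ER, the 3 genes with the smallest unadjusted p of each other list, and the 5 nearest profiles; further genes named (Cnpy3, Car8, Pcp2 and those with an ER stress element) were added after their values were seen. Alternatives were quantile, median and spike-in scaling (7 probes), normexp (offset 50) on the spots' median signal, as no mean signal was read, the authors' values, no filter and a filter on all 4 arrays, outlier spots retained, omission of spots whose local background exceeded the array median 1.5 times and of neighbours up to 2 rows or columns away, eBayes with a trend and robust variances, a block for replicate number, and each array left out. For the gene lists these, and the motif search with 1 mismatch, were added later.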

Additional observations from a re-analysis of the deposited data

How the results depend on the processing

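All 8 member probes kept their direction under all 15 alternatives, and none passed the adjusted limma threshold under any. The filters, the intensity trend and the replicate block do not alter a difference. Leaving out 1 array cannot reverse a probe whose groups are separate, as all 8 were. The direction could thus change only under another scaling, normexp, the authors' values or another choice of spots. The lowest and highest differences were 0.20 and 0.44 for Hsp90b1, 0.54 and 1.11 for the brighter and 0.45 and 1.07 for the dimmer Manf probe, 0.28 and 0.81 for Creld2, 0.74 and 1.33 for Sdf2l1, 0.15 and 0.26 for Creld1, -0.37 and -0.098 for Cdnf and -0.29 and -0.10 for Sdf2. For Manf, Creld2 and Sdf2l1 both ends came from leaving out 1 KO array. Both KO arrays lay above both controls for 6 member probes under each other scaling, normexp, the authors' values and each choice of spots. The remaining settings could not change this count. The pair shifts ran from 0.085 to 0.66 for Creld2 and Creld1, 0.84 to 1.61 for Sdf2l1 and Sdf2 and 0.70 to 1.48 for Manf and Cdnf when 1 array was left out, and kept their sign elsewhere.

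Over all probes, the count past the adjusted threshold, 0, became 1 under each of quantile normalization, median scaling, spike-in scaling and removal of spots on raised background, 2 under normexp and 4 under the intensity trend. With 1 array left out it ran from 0 to 98, the highest without control replicate 2; the remaining array is taken to have the spread of the opposite group. The count of probes at least 2-fold apart with separate groups, 441, became 1239 with no filter, 233 when all 4 arrays had to be above background, 84 under normexp and 565 to 890 with 1 array left out. Of the list medians, that of the Grp94 clients moved from -0.29 to -0.10 under normexp and ran from -0.31 to -0.13 with 1 array left out. That of the partners moved from -0.10 to -0.045 under quantile normalization and -0.015 under spike-in scaling, and ran from -0.20 to -0.051. The medians ran from 0.24 to 0.71 for the PERK and ATF4 branch, from 0.14 to 0.35 for ER folding and from -0.22 to -0.035 for HSP90 outside the ER with 1 array left out. The last was -0.02 under spike-in scaling and -0.039 under quantile normalization. Hsp90aa1 changed sign without KO replicate 2, running from -0.22 to 0.0027 with 1 array left out. The cause of these moves was not tested beyond the construction of each alternative.

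The replicate number comes from the titles, which state no pairing. Deviations of same-numbered arrays correlated at 0.12 across probes, a single comparison that cannot decide whether they belong together. With the replicate block 0 probes passed, as without it, and the pair shifts stayed at 0.37, 1.23 and 1.09. Of 434 values of single named probes under the alternatives, 430 kept their direction and side of the threshold and 3, all of Derl2, passed it.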

Other observations

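Over the whole RefSeq table, the ER stress element stood in the promoter windows of 35 genes, Hsp90b1 and Creld2 among them. Of the 35 genes, 19 had a kept probe. Without Hsp90b1 and Creld2, 17 remained, and 10 of them had both KO arrays above both controls and 2 had both below, against 13.8% and 32.1% of all genes. Their median log2 difference was 0.22. These 17 include 8 genes of the ER folding list (Derl3, Hspa5, Pdia6, Calr, Dnajc3, Ero1b, Canx and Syvn1), all 8 of them higher on both KO arrays, which makes that part no separate evidence. Of the other 9, with a median of 0.08, 2 were higher on both KO arrays and 2 were lower. The higher were Zfp57, a zinc finger protein (0.89, SE 0.23), and Pan2, a deadenylase subunit (0.21, SE 0.12). Zfp57 was dim, at -4.54 and -3.93 in the controls. The lower were 1700122E12Rik (-0.17, SE 0.10) and Adcy3 (-0.18, SE 0.12). With 9 genes both counts were near the shares of all genes, so neither is a result about these 9. These genes were grouped by sequence alone, and none passed the limma adjusted threshold.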
